A study of Homo sapiens with 6 samples.

Results

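The genes described here belong to the cell's programme for amino acid shortage and for unfolded proteins in the endoplasmic reticulum (ER), together with the cytosolic tRNA synthetases. They were chosen by name: 52 symbols were listed, and 51 of them had a row in the count table of 12703 genes. The remaining symbol, VLDLR-AS1, had no row and was not analysed here. RNA was sequenced from PC3, an established human prostate cancer line that came from a bone metastasis. Of the 6 libraries, 3 came from lines stably transduced with lentiviral particles that carry the open reading frame of GCNT1, an enzyme that adds the branching sugar of core 2 O-glycans. The other 3 came from lines that received negative-control lentiviral particles. All 6 lines therefore carry a lentiviral insertion, and what differs by label is the GCNT1 reading frame. The labels call the libraries of a group biological replicates, and nothing in them says whether each line arose from its own transduction, so p-values measure the spread between these libraries.

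In the integrated stress response, kinases that sense unfolded proteins, missing amino acids or other stresses phosphorylate the translation factor eIF2, which lowers translation as a whole while the mRNA of the transcription factor ATF4 is translated more. ATF4 pairs with C/EBP proteins on DNA and drives genes for amino acid synthesis and uptake, tRNA charging and, when stress lasts, cell death. The unfolded protein response has EIF2AK3 (PERK) as the sensor that feeds this pathway, and ERN1 (IRE1) and ATF6 as the sensors that raise chaperones and ER-associated degradation through spliced XBP1 and cleaved ATF6. ATF4 translation, XBP1 splicing and ATF6 cleavage are not seen in gene counts.

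Promoter sequences are shown first because 2 known elements fall on different roles within the list. The sequences are RefSeq's, on GRCh38.p14, written 5′ to 3′ along the gene's own strand. RefSeq promoter windows, which run from 250 bases before to 50 bases after each annotated start, were at hand for 44 of the 51 genes. The C/EBP-ATF composite element, searched as TGATGNAA on both strands, lay in the window of 12 of these 44 genes (27.3%), against 287 of 10236 tested genes with a window (2.80%). In the stretches below, each the 250 bases before the start, capitals mark that element; on the other strand it reads TTGCATCA or a like form.
ATF3, chr1:212565157-212565406, plus strand: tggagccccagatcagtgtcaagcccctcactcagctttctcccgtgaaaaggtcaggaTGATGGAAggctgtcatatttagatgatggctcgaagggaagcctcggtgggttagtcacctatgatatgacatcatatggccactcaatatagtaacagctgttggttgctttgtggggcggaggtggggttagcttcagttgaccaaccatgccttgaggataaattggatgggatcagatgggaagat
CHAC1, chr15:40953221-40953470, plus strand: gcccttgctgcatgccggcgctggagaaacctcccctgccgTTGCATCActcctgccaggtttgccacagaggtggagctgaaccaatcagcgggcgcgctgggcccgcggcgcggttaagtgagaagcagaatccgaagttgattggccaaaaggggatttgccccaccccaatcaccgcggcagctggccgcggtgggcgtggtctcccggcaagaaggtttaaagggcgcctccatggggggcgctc
CEBPG, chr19:33373863-33374112, plus strand: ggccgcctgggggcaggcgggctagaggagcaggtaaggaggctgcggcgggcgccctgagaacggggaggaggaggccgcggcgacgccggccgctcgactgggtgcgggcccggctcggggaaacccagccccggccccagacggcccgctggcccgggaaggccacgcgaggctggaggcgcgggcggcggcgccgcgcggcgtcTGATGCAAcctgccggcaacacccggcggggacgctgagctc
ASNS, chr7:97872409-97872658, minus strand: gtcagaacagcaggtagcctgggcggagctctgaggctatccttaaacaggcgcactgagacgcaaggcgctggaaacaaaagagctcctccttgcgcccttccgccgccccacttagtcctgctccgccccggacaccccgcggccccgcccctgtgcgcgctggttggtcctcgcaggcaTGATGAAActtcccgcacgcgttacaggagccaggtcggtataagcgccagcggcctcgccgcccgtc

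The other 8 genes with this element were 7 synthetases and HERPUD1. The element is shown with 20 bases on each side, or fewer where the start comes first, and with 5 bases on each side where it reaches past the start.
AARS1, chr16:70289666-70289713, minus strand: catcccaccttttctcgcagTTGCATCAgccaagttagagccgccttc
IARS1, chr9:92293698-92293730, minus strand: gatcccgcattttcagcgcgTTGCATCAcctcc
GARS1, chr7:30594825-30594872, plus strand: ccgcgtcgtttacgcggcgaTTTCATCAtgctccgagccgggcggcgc
HERPUD1, chr16:56931946-56931993, plus strand: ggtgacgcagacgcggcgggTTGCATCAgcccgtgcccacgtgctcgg
MARS1, chr12:57488059-57488076, plus strand: tccggTTGCATCAgcgag
CARS1, chr11:3057413-3057430, minus strand: ggcggTTGCATCAgattc
NARS1, chr18:57621810-57621827, minus strand: ctctcTGATGCAAcgccg
TARS1, chr5:33440962-33440979, plus strand: ttcgaTTGCATCAgctgg

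The ER stress element, CCAAT followed after 9 bases by CCACG on either strand, lay in the windows of 7 of the 44 genes (15.9%), against 16 of the 10236 tested genes (0.156%). No gene of the list held both elements. HSPA5 and PDIA6 are given with the 250 bases before the start, since they lie at the opposite ends of this group in their change, and XBP1, CALR, CRELD2 and CANX with the surrounding bases. Capitals mark the whole element with its spacer.
HSPA5, chr9:125241344-125241593, minus strand: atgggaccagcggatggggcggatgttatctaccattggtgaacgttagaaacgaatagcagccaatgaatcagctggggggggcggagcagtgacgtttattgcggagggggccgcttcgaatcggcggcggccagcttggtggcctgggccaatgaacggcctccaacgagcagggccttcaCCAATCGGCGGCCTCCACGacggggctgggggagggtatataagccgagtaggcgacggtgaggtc
PDIA6, chr2:10812786-10813035, minus strand: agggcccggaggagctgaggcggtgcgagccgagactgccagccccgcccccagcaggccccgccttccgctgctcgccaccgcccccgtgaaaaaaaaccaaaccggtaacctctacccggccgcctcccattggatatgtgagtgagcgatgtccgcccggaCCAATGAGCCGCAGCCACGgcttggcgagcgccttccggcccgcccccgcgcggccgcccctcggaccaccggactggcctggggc
XBP1, chr22:28800583-28800641, minus strand: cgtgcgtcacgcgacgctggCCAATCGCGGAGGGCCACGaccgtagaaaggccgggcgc
CALR, chr19:12938364-12938422, plus strand: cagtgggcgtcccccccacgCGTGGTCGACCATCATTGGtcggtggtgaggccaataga
CRELD2, chr22:49918534-49918592, plus strand: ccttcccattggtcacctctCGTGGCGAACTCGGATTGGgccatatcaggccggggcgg
CANX, chr5:179698773-179698801, plus strand: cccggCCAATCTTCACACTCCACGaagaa

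HSP90B1 held the ER stress element at 2 places in its window. The unfolded protein response element TGACGTGG, which shares the letters CGTGG with the ER stress element read on the other strand, lay in the windows of ALDH18A1, CARS1 and HYOU1 (6.82%) and in 130 of the tested genes (1.27%). These matches describe letters only, and binding was not measured. The genes were chosen as known members of these pathways, so their shares beside all genes are no test of the list.

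Levels are given as CPM, read counts scaled to a common library size with TMM factors. Total counts were 12125672 to 12755888 in the control libraries and 11392213 to 13825704 in the overexpressing ones. Along the first principal component, which carried 89.3% of the variance, the groups lay apart. The changes of the genes in the list stand beside many others: with an adjusted p under 0.05 and a log2 fold change of at least 0.58 in size, the limits used here, 8.28% of all tested genes were higher and 11.1% lower with GCNT1 overexpression. GCNT1 itself had 9, 13 and 8 counts in the control libraries and 13, 16 and 35 in the overexpressing ones (log2 fold change 0.98, SE 0.37, edgeR adjusted p = 0.0362), so its rise was seen on few reads. The PC3 markers CD44, VIM, KRT8, KRT18 and CAV1 had means from 202 to 1390 CPM and EPCAM 5.54 and 5.91 CPM, while KLK2 and KLK3 had no row and TMPRSS2 had 4.20 and 1.75 CPM. Of 6 fibroblast markers 2 had a row, COL1A1 (14.6 against 8.55 CPM) and COL3A1 (139 against 36.2 CPM, both lower with overexpression), and of 6 leukocyte markers only CD68 did, at 89.8 and 84.4 CPM.

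With GCNT1 overexpression, 5 of the 51 genes rose past both thresholds: ATF3, TRIB3, CARS1, PSAT1 and CEBPG, which are 9.80% of the list against 8.28% of all genes. A further 2 genes fell past both, ALDH1L2 and PDIA6, which are 3.92% against 11.1%. By adjusted p alone, 22 were higher (43.1%, against 28.3% of all genes) and 12 lower (23.5%, against 29.3%), and 17 passed in neither direction. All 3 overexpressing libraries lay above all 3 controls for 24 genes, 47.1% beside 30.9% of all genes, and below them for 12 genes, 23.5% beside 31.6%. The median log2 fold change was 0.11 over the list and 0.001 over all genes. Scaling by library size alone, which moved the median of all genes to 0.059, gave 27 higher and 8 lower by adjusted p. Over all 12703 genes that scaling gave 4290 higher and 3144 lower, beside 3593 and 3721 with TMM factors. The share past both thresholds was near that of all genes for rises and below it for falls. In a bulk sample, fewer cells that express a gene and less of its RNA per cell cannot be told apart, which holds for every fall below, and likewise for the rises.

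**Figure D1:**
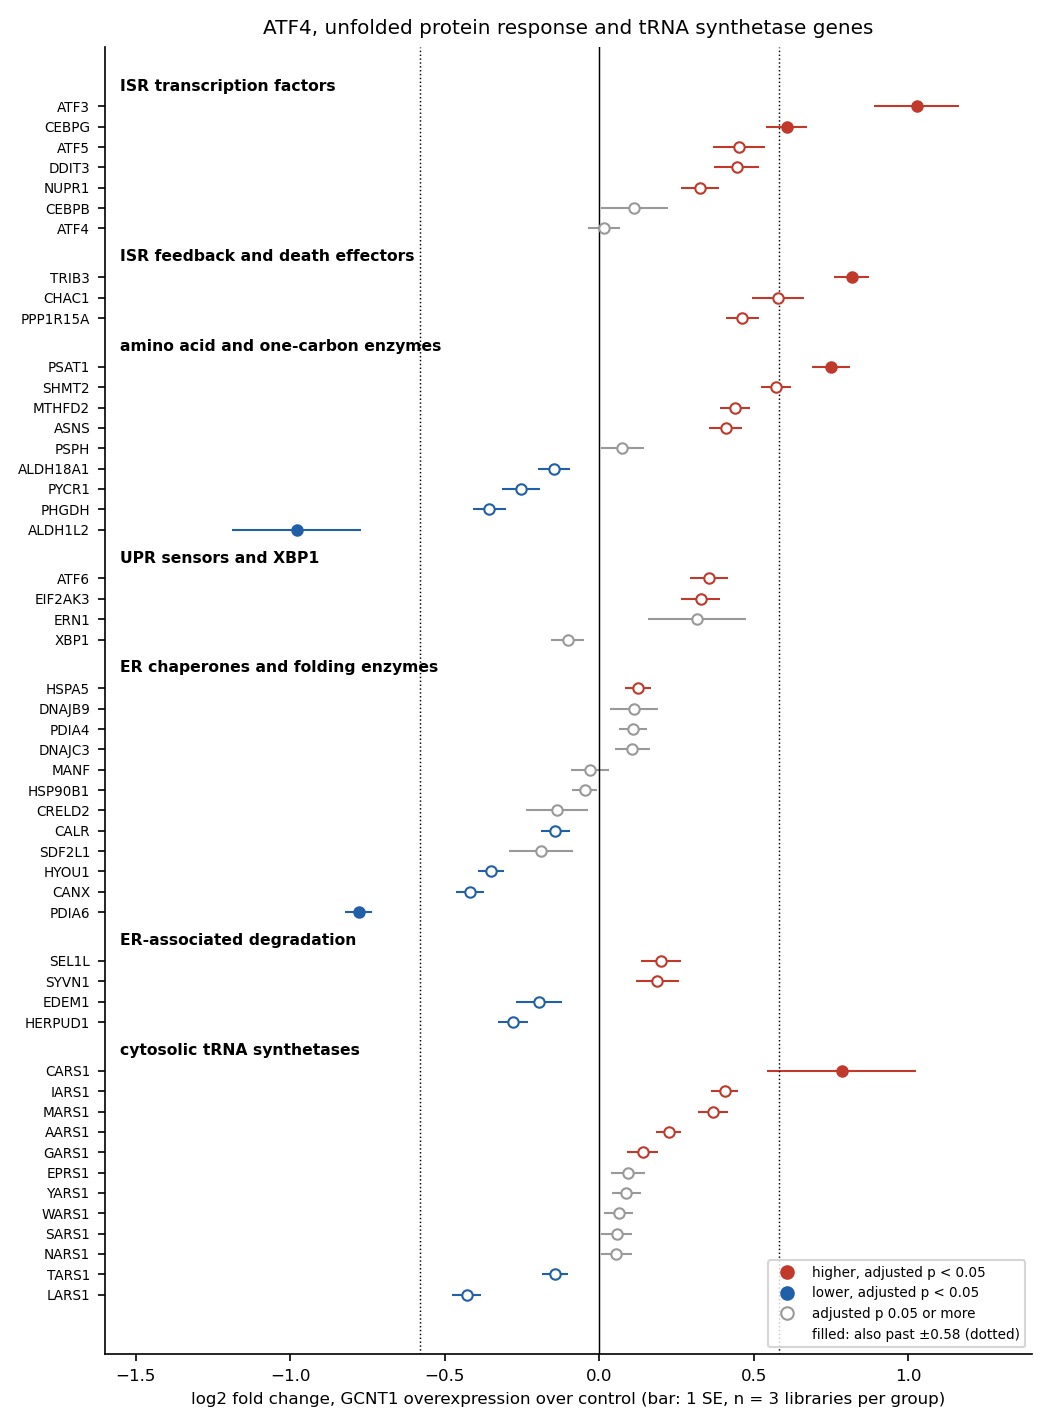
Log2 fold change of each gene with GCNT1 overexpression over control (x axis; bars are 1 SE, n = 3 libraries per group), by role; red is higher and blue lower at an adjusted p under 0.05, and filled points are also past the dotted lines at 0.58. Transcription factors and feedback genes lie at or right of 0, from 0.01 for ATF4 to 1.03 for ATF3, while chaperones run from 0.12 for HSPA5 down to -0.78 for PDIA6.

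By role, the counts below are descriptions, to be read against the 28.3% of all genes that were higher and the 29.3% that were lower by adjusted p. The transcription factors and the feedback genes of the integrated stress response held 8 of the 22 rises and no fall. The ER chaperones held 1 rise and 4 falls among 12 genes, a share of falls near that of all genes, and the enzymes of amino acid and one-carbon metabolism 4 of each. No test was made of a role as a group or of a difference between roles.

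**Figure D2:**
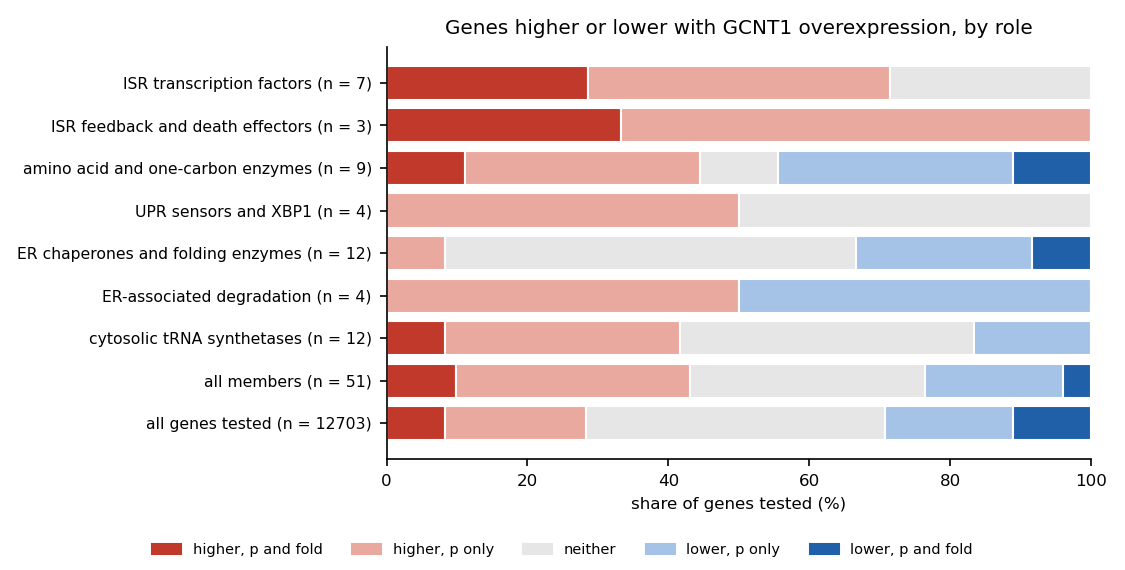
Share of tested genes in each role (x axis, percent) that were higher (red) or lower (blue) with GCNT1 overexpression, dark where both thresholds were passed and pale where only the adjusted p was. Feedback genes are wholly red (3 of 3), degradation genes are split 2 and 2, and the bottom bar gives all 12703 genes.

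Among the 7 transcription factors of the integrated stress response, 2 rose past both thresholds, 3 more rose by adjusted p alone and none fell, with a median log2 fold change of 0.44. ATF4 (chr22:39520559-39522686), the factor at the head of the pathway, had 196, 201 and 217 CPM in the control libraries and 213, 200 and 206 CPM in the overexpressing ones. The groups overlapped, and the means of 204 ± 11.2 and 207 ± 6.30 CPM (SD, n = 3) differed by a log2 fold change of 0.01 (SE 0.05, edgeR adjusted p = 0.832). ATF4 mRNA was thus within the spread between libraries, at a level per kilobase of 144 CPM, the highest of the 7. Of 121 windows of read length along its transcript, 16.5% had a second exact match elsewhere in the primary genome.

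ATF3 (chr1:212565407-212620777), a stress-induced factor that ATF4 activates and that acts mostly as a repressor, had 7.95, 5.94 and 5.50 CPM in the control libraries and 11.8, 13.3 and 14.3 CPM in the overexpressing ones. Every overexpressing library lay above every control, and the level was 2.04 times the control mean (log2 fold change 1.03, SE 0.14, edgeR adjusted p = 3.02e-05). It was the steepest rise in the list and also the gene of lowest level per kilobase among these factors, 3.33 CPM in control. CEBPG (chr19:33373709-33382686), a C/EBP protein that pairs with ATF4 on the composite element, went from 42.0, 38.1 and 37.1 CPM to 61.7, 57.2 and 59.7 CPM (log2 fold change 0.61, SE 0.07, edgeR adjusted p = 5.22e-06). Its value stood just over the fold threshold, and without control replicate 3 it was 0.57.

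DDIT3 (CHOP), the factor tied to cell death under lasting ER stress, had 29.8, 33.7 and 34.6 CPM in control and 42.7, 44.8 and 45.9 CPM with overexpression. These groups did not overlap, and the rise (log2 fold change 0.44, SE 0.07, edgeR adjusted p = 0.000159) stayed under the fold threshold. Its gene overlaps MARS1, another gene of the list, on the opposite strand. ATF5, a factor translated under the same control as ATF4, rose from 60.4 to 82.8 CPM (0.45), and NUPR1, a small stress-induced chromatin protein, from 50.8 to 63.7 CPM (0.33). CEBPB, a further partner of ATF4, had 17.0, 16.5 and 17.8 CPM against 21.6, 15.7 and 18.4 CPM, and overexpressing replicates 1 and 3 lay above the controls while replicate 2 lay below them (log2 fold change 0.11, edgeR adjusted p = 0.392).

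**Figure D3:**
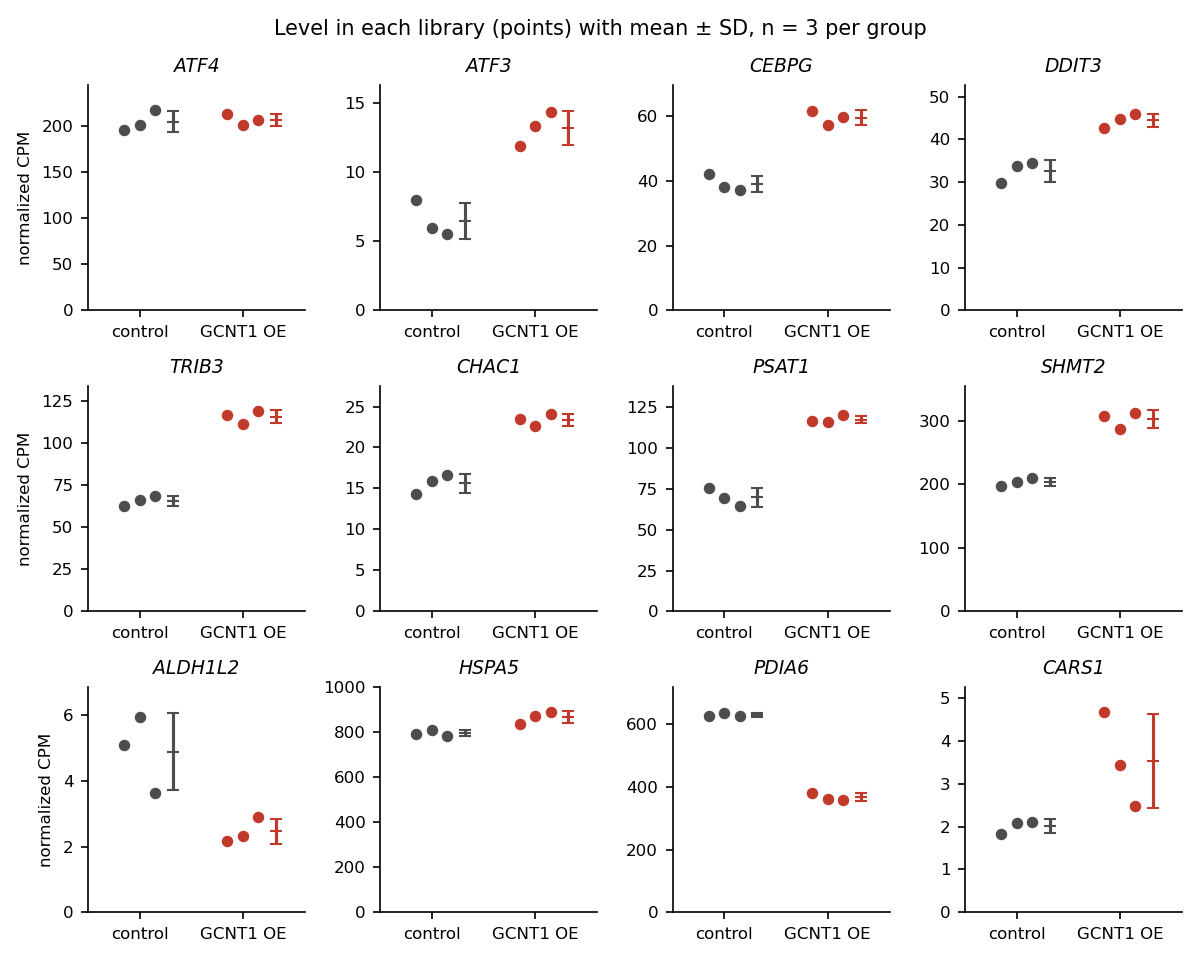
TMM-scaled CPM (y axis, from 0) in each library for 12 genes, control in grey and GCNT1 overexpression in red, with the mean and SD beside the 3 points of each group. ATF4 overlaps between groups, the other genes do not, and CARS1 spreads from 2.48 to 4.67 CPM among the overexpressing libraries.

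All 3 feedback and death effectors rose by adjusted p, with a median log2 fold change of 0.58, and TRIB3 also passed the fold threshold. TRIB3 (chr20:380760-397559), a pseudokinase that ATF4 and DDIT3 induce and that restrains both, had 62.5, 66.0 and 68.3 CPM in control and 116, 111 and 119 CPM with overexpression. Its groups lay far apart relative to their spread (65.6 ± 2.97 against 116 ± 3.78 CPM, SD, n = 3), and the log2 fold change of 0.82 had the smallest adjusted p of the genes that rose (SE 0.06, edgeR adjusted p = 6.61e-08). CHAC1 (chr15:40953471-40956512), which breaks down glutathione, rose from 14.4, 15.9 and 16.7 CPM to 23.5, 22.6 and 24.0 CPM. Its log2 fold change of 0.579 (SE 0.08, edgeR adjusted p = 5.97e-05) lay just under the fold threshold of 0.58, and it passed without control replicate 2 (0.59), without control replicate 3 (0.63) and without overexpressing replicate 2 (0.61). PPP1R15A (GADD34), the phosphatase subunit that returns eIF2 to its active form, rose from 97.4 ± 2.79 to 134 ± 4.49 CPM (SD, n = 3; log2 fold change 0.46, SE 0.05, edgeR adjusted p = 6.69e-06).

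The 9 enzymes of amino acid and one-carbon metabolism went both ways, with 4 higher and 4 lower by adjusted p and a median log2 fold change of 0.07. The steps of serine synthesis were split. PHGDH, which opens the pathway, fell from 159, 172 and 176 CPM to 135, 130 and 131 CPM (log2 fold change -0.36, SE 0.05, edgeR adjusted p = 7.53e-05). PSAT1 (chr9:78297125-78330093), the transaminase that follows it, rose from 75.6, 69.2 and 64.4 CPM to 116, 116 and 120 CPM, with no overlap (log2 fold change 0.75, SE 0.06, edgeR adjusted p = 3.99e-07). PSPH, the phosphatase that releases serine, had 37.7 ± 2.10 and 39.7 ± 1.96 CPM (SD, n = 3; log2 fold change 0.07, edgeR adjusted p = 0.377). Per kilobase PHGDH stood at 90.5 CPM in control and 70.7 CPM with overexpression, and PSAT1 at 31.6 and 53.2 CPM, so the levels of these neighbouring steps came closer together.

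Among the mitochondrial one-carbon enzymes, which take serine's carbon on, SHMT2 rose from 197, 203 and 210 CPM to 308, 287 and 313 CPM (log2 fold change 0.57, SE 0.05, edgeR adjusted p = 6.05e-07), just under the fold threshold. It passed the threshold without control replicate 3 (0.59) and without overexpressing replicate 2 (0.61). MTHFD2, the dehydrogenase and cyclohydrolase after it, rose from 126 to 170 CPM (0.44). ALDH1L2 (chr12:105019790-105084458), which oxidises formyl-tetrahydrofolate in the same compartment, went the other way, from 5.09, 5.94 and 3.64 CPM to 2.16, 2.33 and 2.91 CPM. These few reads still gave groups without overlap and the steepest fall in the list (log2 fold change -0.98, SE 0.21, edgeR adjusted p = 0.00133), though its gene is overlapped by NOPCHAP1 and WASHC4 on the opposite strand.

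ASNS, which makes asparagine and is a standard readout of ATF4, rose from 63.0, 63.4 and 66.6 CPM to 85.5, 86.0 and 84.7 CPM (log2 fold change 0.41, SE 0.05, edgeR adjusted p = 2.46e-05). Both proline enzymes of the list fell by adjusted p: PYCR1 from 150 to 126 CPM (-0.25) and ALDH18A1 from 130 to 118 CPM (-0.15). The smaller of these falls was lost without control replicate 1 or 3, without overexpressing replicate 2 or 3 and with library size alone (adjusted p = 0.0636 to 0.142).

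The sensors of the unfolded protein response moved little, and none of the 4 genes in this role passed the fold threshold. EIF2AK3 rose from 48.9, 47.6 and 45.0 CPM to 55.2, 61.0 and 61.2 CPM (log2 fold change 0.33, SE 0.06, edgeR adjusted p = 0.000721). ATF6 rose from 112, 107 and 105 CPM to 127, 149 and 137 CPM (log2 fold change 0.35, SE 0.06, edgeR adjusted p = 0.00027). For both genes the groups did not overlap.

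ERN1 had 16.9, 19.5 and 16.0 CPM in control and 15.0, 25.8 and 23.8 CPM with overexpression, so that overexpressing replicate 1 lay below every control and the other two above. Its log2 fold change of 0.32 (SE 0.16) did not pass (edgeR adjusted p = 0.102), and without overexpressing replicate 1 it was 0.50 (edgeR adjusted p = 0.000195). XBP1, whose mRNA ERN1 splices, had 79.5, 77.4 and 83.1 CPM against 74.1, 74.3 and 75.2 CPM. All overexpressing libraries were below the controls by a small margin that did not pass the test (log2 fold change -0.10, SE 0.05, edgeR adjusted p = 0.119).

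Of the 12 ER chaperones and folding enzymes, 1 rose and 4 fell by adjusted p, 7 passed in neither direction, and the median log2 fold change was -0.09. HSPA5 (BiP), the ER chaperone that holds the sensors inactive and the usual marker of the response, had 793, 809 and 782 CPM in control and 838, 871 and 892 CPM with overexpression. The groups did not overlap, yet the difference was small, 1.09 times the control mean (log2 fold change 0.12, SE 0.04, edgeR adjusted p = 0.0206). It no longer passed without control replicate 3 (adjusted p = 0.0541) or without overexpressing replicate 3 (adjusted p = 0.112).

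PDIA6 (chr2:10783391-10837712), a protein disulphide isomerase that also damps ERN1 signalling, had 625, 637 and 628 CPM in control and 382, 361 and 360 CPM with overexpression. This change had the smallest adjusted p of the list, from 630 ± 6.53 to 367 ± 12.5 CPM (SD, n = 3; log2 fold change -0.78, SE 0.04, edgeR adjusted p = 7.36e-09). ATP6V1C2 overlaps it on the opposite strand. CANX, the membrane lectin of the calnexin cycle, fell from 1236, 1231 and 1153 CPM to 869, 925 and 916 CPM (log2 fold change -0.42, SE 0.04, edgeR adjusted p = 4.32e-06).

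HYOU1, the nucleotide exchange factor of HSPA5, fell from 454 to 356 CPM (-0.35), and CALR, the soluble partner of CANX, from 1624 to 1472 CPM (-0.14). The fall of CALR did not hold without control replicate 2 or 3 or without overexpressing replicate 2 or 3 (adjusted p = 0.0547 to 0.110) or with library size alone (adjusted p = 0.118). HSP90B1, DNAJB9, DNAJC3, PDIA4, SDF2L1, CRELD2 and MANF had log2 fold changes from -0.19 to 0.11 and did not pass. DNAJB9, which spliced XBP1 induces, had 22.2 ± 1.41 and 24.1 ± 0.722 CPM (SD, n = 3). Per kilobase CALR was the most abundant of these genes (854 CPM in control, 774 CPM with overexpression), and PDIA6 went from 276 to 161 CPM.

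ER-associated degradation had 2 genes higher and 2 lower by adjusted p, none of them past the fold threshold. SYVN1, the ubiquitin ligase of a complex that clears misfolded proteins, had 124 ± 12.9 against 142 ± 5.00 CPM (SD, n = 3; log2 fold change 0.19). SEL1L, its partner in the complex, had 132 ± 9.03 against 152 ± 10.2 CPM (SD, n = 3; 0.20). HERPUD1, a scaffold of that complex, fell from 161, 167 and 169 CPM to 132, 139 and 139 CPM (log2 fold change -0.28, SE 0.05, edgeR adjusted p = 0.0003), and EDEM1, which trims mannose from its clients, from 101 to 88.4 CPM (-0.20). Of these 4, HERPUD1 alone had groups that did not overlap. SEL1L was lost without control replicate 2 or 3 or overexpressing replicate 2 or 3 (adjusted p = 0.0602 to 0.0685). SYVN1 was lost without control replicate 1 or 2 or overexpressing replicate 3 (adjusted p = 0.107 to 0.127), and EDEM1 without control replicate 1 or 2 or overexpressing replicate 1 or 3 (adjusted p = 0.0987 to 0.142) and with library size alone (adjusted p = 0.140).

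The 12 cytosolic tRNA synthetases, each of which charges tRNA with the amino acid in its symbol, had 5 higher and 2 lower by adjusted p and a median log2 fold change of 0.09. IARS1, for isoleucine, rose from 248, 259 and 248 CPM to 325, 339 and 337 CPM (log2 fold change 0.41, SE 0.04, edgeR adjusted p = 5.06e-06). MARS1, for methionine, rose from 193 to 249 CPM (0.37), AARS1, for alanine, from 469 to 548 CPM (0.22) and GARS1, for glycine, from 159 to 175 CPM (0.14). The rise of GARS1 was lost without control replicate 1 or 3 or overexpressing replicate 3 (adjusted p = 0.0799 to 0.108) and under DESeq2 (adjusted p = 0.0525).

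LARS1, for leucine, fell from 241, 239 and 236 CPM to 175, 173 and 183 CPM, with no overlap (log2 fold change -0.43, SE 0.05, edgeR adjusted p = 4.05e-06). TARS1, for threonine, fell from 406 to 367 CPM (-0.14), a fall that was lost without control replicate 2 (adjusted p = 0.0582) and with library size alone (adjusted p = 0.0889). EPRS1, YARS1, WARS1, SARS1 and NARS1 had log2 fold changes from 0.06 to 0.09 and did not pass.

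CARS1 (chr11:3000929-3057423), for cysteine, was the only synthetase past both thresholds, and its level stood apart. It had 1.83, 2.09 and 2.11 CPM in control and 4.67, 3.42 and 2.48 CPM with overexpression, whereas every other synthetase of the list had a control mean of at least 138 CPM. Per kilobase that is 0.734 CPM in control, against at least 50.1 CPM for the others. The log2 fold change was 0.78 (SE 0.24, edgeR adjusted p = 0.0135), and without overexpressing replicate 1 it was 0.55 (adjusted p = 0.0514).

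Of 113 windows of read length along the CARS1 transcript, 99.1% had a second exact match on an alternative sequence of hg38. Over the 176 genes listed here and in the pathway lists below, 7 had such matches in more than 90% of windows: 5 of these had no row (PYCR3, VARS2, ATF6B, DERL3 and RNF5), and VARS1 had at most 1.73 CPM in any library. Among the other 169 genes, 3 had no row. The counting rule for reads with several matches is not given in the sources used here, and its part in the CARS1 value was not tested. Without CARS1, 4 of 50 genes rose past both thresholds.

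The changes were also read by promoter element, as a description without a test. The 12 genes with the C/EBP-ATF element had a median log2 fold change of 0.39, with 9 higher and 2 lower by adjusted p (28.3% and 29.3% of all genes), and the 32 genes with a window but no such element had a median of 0.10. ATF3, CARS1, CEBPG, CHAC1, ASNS, IARS1 and MARS1 were at or above 0.37, with the limits on CARS1 given above, AARS1 and GARS1 were lower at 0.22 and 0.14, and NARS1, at 0.06, did not pass. TARS1 and HERPUD1 held the element and fell. After subtraction of the median change of neighbouring genes, described below, IARS1 was left with 0.09, MARS1 with 0.07 and AARS1 with 0.02.

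The 7 genes with the ER stress element had a median log2 fold change of -0.14, with HSPA5 higher and PDIA6, CANX and CALR lower by adjusted p. The genes without it had a median of 0.19. HSPA5 and PDIA6 carry the element at like distances from the start, beginning 66 and 86 bases before it, and their log2 fold changes were 0.12 and -0.78. After subtraction of the median change of neighbouring genes these were -0.08 and -0.28, so that HSPA5 turned sign. PSAT1 and TRIB3, which rose, held none of the 3 elements in the window used.

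**Figure D4:**
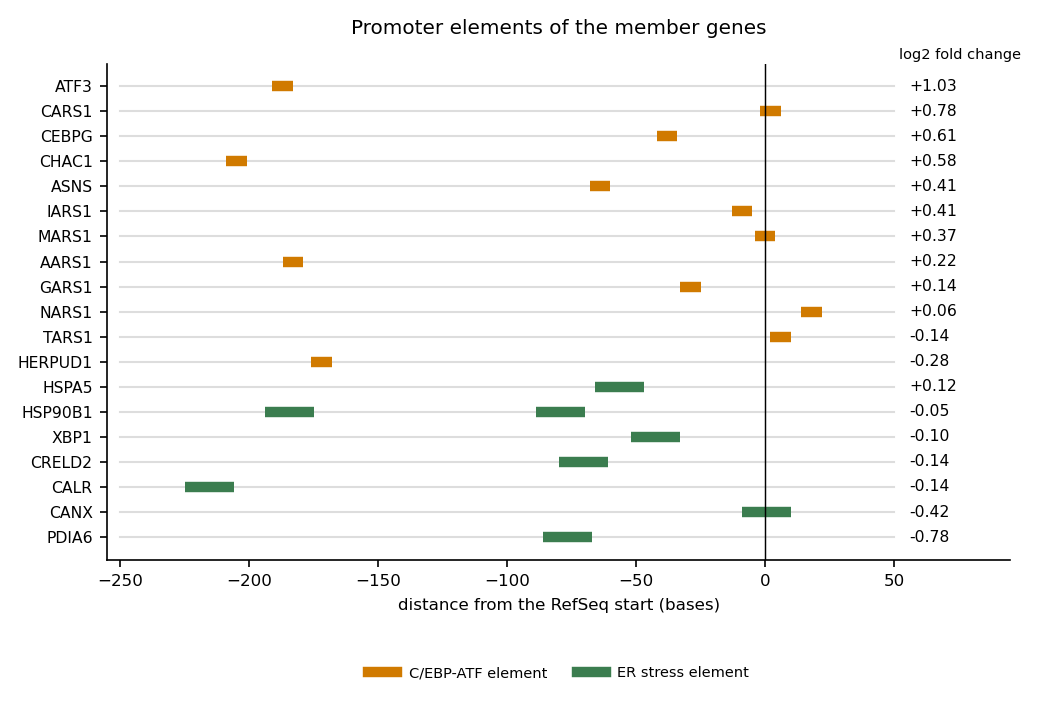
Position of the C/EBP-ATF element (orange) and the ER stress element (green) in bases from the RefSeq start (x axis; 0 is the start) in the 19 genes that hold one, with the log2 fold change of each at the right; a gene with several starts is drawn at the window of lowest coordinate. The 12 upper genes, with the C/EBP-ATF element, run from 1.03 to -0.28, and all 7 genes with the ER stress element lie between 0.12 and -0.78.

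Each gene was also set against the median log2 fold change of the 50 nearest tested genes. This local median ran from -0.75 to 0.31 over the list and was beyond 0.2 in size for 19 of 51 genes. SHMT2, MARS1 and DDIT3 lie close together on chromosome 12, with local medians of 0.30 each, and PSAT1 (0.30) and CEBPG (0.29) had local medians of the same size. PDIA6 lay at -0.50, CANX at -0.28, LARS1 at -0.27 and TARS1 at -0.75, below 0 like their own changes.

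After subtraction of the local median, ATF3 (0.98), TRIB3 (0.97), CARS1 (0.69) and CHAC1 (0.63) were above 0.58 and ALDH1L2 was at -1.16. PSAT1 (0.45), CEBPG (0.32) and PDIA6 (-0.28) came under 0.58 in size. Among the other genes named above, SHMT2 was left with 0.28, DDIT3 with 0.15, CANX with -0.14, LARS1 with -0.16 and HYOU1 with -0.06. PHGDH was left with -0.14, while PYCR1 (0.11) and EDEM1 (0.01) turned sign. TARS1 came to 0.60 above its surroundings although its own level fell. What moved the neighbouring genes was not tested.

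**Figure D5:**
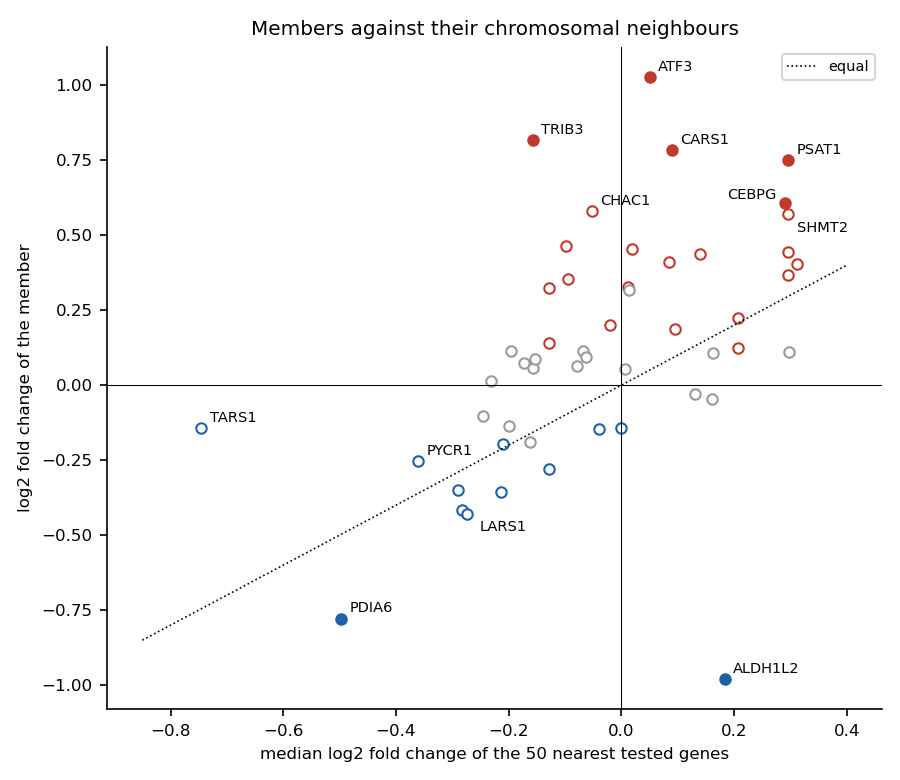
Log2 fold change of each gene (y axis) against the median log2 fold change of its 50 nearest tested genes (x axis), coloured and filled as in the plot of fold changes by role; the dotted line marks equal values. TRIB3, ATF3 and CHAC1 lie high above the line near 0 on the x axis, PDIA6 at -0.50 lies closer to it, and ALDH1L2 lies far below it.

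Other genes of these pathways were taken from lists of 124 symbols, of which 117 had a row. Past both thresholds 7 rose and 7 fell (background 8.28% and 11.1% of all genes), and by adjusted p alone 46 were higher and 24 lower (background 28.3% and 29.3%, also for the counts of each list below), with a median log2 fold change of 0.09. Amino acid transporters had the highest median among these lists, 0.28, with 9 of 12 higher and 2 lower by adjusted p. SLC7A5, the exchanger that brings in leucine and other large amino acids, rose from 256, 283 and 288 CPM to 483, 424 and 465 CPM (log2 fold change 0.73, SE 0.06, edgeR adjusted p = 3.01e-07). SLC7A1, which takes up arginine and lysine, rose by a like amount (0.73), and SLC1A4, a transporter of alanine, serine and cysteine, fell from 61.9 to 40.4 CPM (-0.61). After subtraction of their local medians, SLC7A1 was left with 0.60, SLC7A5 with 0.41 and SLC1A4 with -0.26, the latter pair under 0.58 in size.

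Among 14 genes of eIF2, its exchange factor eIF2B and the other eIF2 kinases, 3 were higher and 2 lower by adjusted p. The 2 that were lower also passed the fold threshold: IMPACT, which restrains the amino acid sensor EIF2AK4, fell from 49.3 to 29.4 CPM (-0.74), and EIF2B4, a subunit of eIF2B, from 46.7 to 30.6 CPM (-0.61, with a local median of -0.52). EIF2AK4 itself had 196 and 213 CPM (log2 fold change 0.12, edgeR adjusted p = 0.0692).

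The other known ATF4 targets were split, with 8 of 22 higher and 8 lower by adjusted p. JDP2, a bZIP repressor, had 85, 84 and 85 counts in the control libraries and 2, 1 and 1 counts in the overexpressing ones, so that nearly all of its reads came from the control lines (edgeR adjusted p = 2.44e-09). CTH and DDIT4 also fell past both thresholds (-0.96 and -0.80), and KLHL24 rose (0.58, or 0.36 after subtraction of its local median).

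The synthetases outside the list and their scaffold had 4 of 12 higher and 1 lower by adjusted p, and the mitochondrial synthetases 6 of 16 higher and 2 lower. Only MARS2, the mitochondrial methionine enzyme, passed both thresholds, from 8.97 to 15.7 CPM (0.80). Of 28 other genes of the unfolded protein response and ER folding, 11 were higher and 6 lower by adjusted p, with TRAF2, an adaptor of ERN1, higher (0.67, with a local median of 0.61) and the oxidase ERO1B lower (-0.59, or -0.54 after subtraction of its local median). Of 13 other genes of ER-associated degradation, 5 were higher and 3 lower, and SELENOS alone passed both thresholds, from 41.1 to 63.6 CPM (0.63). Its local median was 0.30, which left 0.33.

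Across 13 alternatives of test, scaling, filter, block and libraries, with the fold threshold left aside, 17 of the 22 higher genes and 8 of the 12 lower ones stayed past an adjusted p of 0.05 in every one. The 9 that did not were CARS1 and 8 genes with log2 fold changes of at most 0.20 in size. Of the 51 genes, 24 are overlapped by a gene on the opposite strand. The library kit keeps strand, but whether counting used it is not given in the sources used here, so reads of such pairs cannot be told apart.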

How the data were processed

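The authors made libraries of mRNA with a strand-keeping kit and read them singly over 75 bases. Trimming (Cutadapt), mapping to hg38 (HISAT2) and counting per gene (featureCounts) were run by them in Galaxy. They deposited raw read counts per gene and library, with no normalization or pooling. The annotation, the strand setting and the rule for reads with several matches are not given in the sources used here. All 12703 genes reached at least 1.01 CPM in their 3 highest libraries, so the table had been filtered on low counts.

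Counts of 3 control and 3 overexpressing libraries were tested in R 4.3.3 with edgeR 4.0.16 (filterByExpr, which kept every gene, TMM factors, the quasi-likelihood test and Benjamini-Hochberg adjustment over 12703 genes). The biological coefficient of variation was 0.0515 in common, and within-group chi-square per degree of freedom of 1.65 to 5.65 exceeded sampling noise, so every library was kept as 1 sample. The limits were 0.05 for the adjusted p and 0.58 for the size of the log2 fold change, those of the authors. The alternatives were limma-voom (limma 3.58.1), DESeq2 1.42.0, other scalings and filters, glmTreat, a replicate block and each library left out. Code was tested on simulated data. Promoters and windows of 75 bases (step 10, canonical transcript, GENCODE 44 on hg38, minimap2 2.31) were read in Python 3.11.15.

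The genes, roles and pathway lists were chosen with earlier results of these data known. Named genes were those past both limits, the main regulators, the highest and lowest of each role and, in each pathway list, the highest and lowest past both limits. Other genes were named to account for a count, and EIF2AK4, ASNS, CEBPB, DNAJB9, IARS1, MARS1 and the genes with an element were named after their values were seen. Data of the study on proteins, cells and tumours were not used here, and part of what the rule for named genes and the marker lists give is left out.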

Additional observations from a re-analysis of the deposited data

How the results depend on the processing

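Under limma-voom, DESeq2, library size alone, RLE factors, the replicate block, a filter of 10 counts in every library and no filter, 5 to 7 genes of the list rose past both thresholds and 2 fell. Of 252 values of 18 named genes under 14 settings, 230 kept their direction and their side of an adjusted p of 0.05, 19 no longer had an adjusted p under 0.05 (11 of them under glmTreat, whose p is for a change beyond 0.58, with the fold itself as before, and 8 under other settings), 1 gained it (ERN1) and 2 turned sign: ATF4 ran from -0.0094 to 0.059 with single libraries left out, and was below 0 without control replicate 1 (-0.0094) and without overexpressing replicate 1 (-0.0080). When single libraries were left out, 18 to 23 were higher and 9 to 11 lower by adjusted p alone. Over all genes these were 3051 to 3609 higher and 3256 to 3747 lower. Past both thresholds the counts were 4 to 7 higher and 2 lower. By role, these counts of higher genes were 1 to 2 for transcription factors, 1 to 2 for feedback genes, 1 to 2 for enzymes and 0 to 1 for synthetases. The synthetase count of 0 came without overexpressing replicate 1, and the transcription factor count of 1 without control replicate 3 (CEBPG, 0.57).

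The glmTreat test, which asks for a change beyond 0.58 and is stricter by construction, gave 3 higher (ATF3, PSAT1 and TRIB3) and 1 lower (PDIA6), with 1 transcription factor and 0 synthetases higher and 0 enzymes lower. Over all 12703 genes it gave 527 higher and 865 lower. Feedback genes past both thresholds were 2 under limma-voom and under library size alone, with CHAC1 added, and library size alone gave 2 enzymes, with SHMT2 added. Relative to the local median, a setting that was added once the data had been seen and that kept the adjusted p of each gene's own change, the counts were 5 higher and 1 lower, made up of 1 transcription factor, 2 feedback genes, 0 enzymes and 2 synthetases (CARS1 and TARS1) higher, and 0 chaperones lower. TARS1 is counted there on an adjusted p that belongs to its fall.

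The replicate numbers are shared only as numbers: deviations of libraries with the same number correlated at -0.273, -0.0024 and -0.109. With the number as a replicate block, 5 genes rose and 2 fell past both thresholds. By adjusted p alone 20 were higher and 8 lower. Over all 12703 genes the block gave 3178 higher and 3353 lower by adjusted p, beside 3593 and 3721 without it. HSPA5 was at 0.12 with the block (edgeR adjusted p = 0.0755). ALDH18A1, CALR, EDEM1, GARS1 and TARS1 were also no longer under 0.05 (edgeR adjusted p = 0.0528 to 0.0859). Among the role counts, those for the unfolded protein response sensors and for degradation were 0 in every setting. Within the list, depth limits ALDH1L2, CARS1 and ATF3 most, which had under 15 CPM in every library. It also limits JDP2 and GCNT1, with few reads in a group. Among the pathway genes named above, CTH (8.87 CPM in control, 4.54 CPM with overexpression) and ERO1B (4.46 and 2.95 CPM) were low as well.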
